A study of Saccharomyces cerevisiae with 119 samples.

Results

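M22 is a vineyard strain of the budding yeast Saccharomyces cerevisiae, and the measurements described here are the changes in its transcript levels after mild salt stress. The members are 6 RNA-seq libraries, 3 of M22 cells held in 0.4 M NaCl for 45 min and 3 of unstressed M22 cells, taken by strain and treatment from the labels and joined by replicate number. They are 6 of the 119 libraries of the series, and the same response was read in 42 salt and unstressed libraries of 7 other strains. The study asked how strains that differ in their need for the catalase Ctt1p during acquired hydrogen peroxide resistance differ in stress-responsive expression. It profiled 8 strains unstressed, after salt and after 5% ethanol for 30 min, beside a separate set of YPS606 mutants that is not used here.

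All groups are labelled wild type and were grown at 30 °C in rich glucose medium (YPD) to mid-exponential phase. The M22 groups are salt (3 libraries), ethanol (3) and unstressed (3). The other strains are DBY8268 (a derivative of the laboratory strain S288c), M1, Y10, YJM1129, YJM308 and the oak strains YPS163 and YPS606, each with 3 salt and 3 unstressed libraries. In the study's methods, each wild strain is a homozygous diploid made from 1 isolate, so the replicates are cultures of 1 clone and a difference between M22 and another strain is a difference between clones. Within a replicate, a culture was sampled unstressed and then split into medium with salt or with ethanol, so the unstressed sample took neither the dilution nor the further growth, and these cannot be told apart from the salt itself. The titles of the 3 Y10 salt samples conflict with their other labels, which were followed here, and 1 of them is titled as an ethanol sample. The study's methods also mention a mix-up among the Y10 ethanol samples. The library titled as ethanol correlated with the other Y10 salt libraries at 0.987 or more and with the Y10 ethanol libraries at 0.892 or less, across genes in log2 CPM.

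High external salt draws water out of a yeast cell and brings toxic sodium into it. The High Osmolarity Glycerol (HOG) kinase pathway answers with synthesis and retention of glycerol, sodium pumps such as Ena1p export the ion, and the general stress factors Msn2p and Msn4p, which bind the stress response element, switch on a broad set of protective genes. Genes for making ribosomes are repressed at the same time, and the state induced by mild salt protects cells against a later, harsher stress.

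The M22 libraries held 10884842 to 13445995 counts after salt and 10075307 to 14865602 unstressed, within the 7726938 to 17964859 of all 71 libraries in the strain experiment. Levels are given as CPM, counts scaled to a common library size after trimmed-mean (TMM) normalization. Each M22 salt library correlated with the other 2 at 0.989 or more across genes in log2 CPM and with any library of another group at 0.948 or less, and the same was seen of the unstressed libraries (0.985 or more against 0.973 or less). Genes that MATα haploids express and diploids repress were near 0 in M22, whose 6 libraries held 0.31 to 1.84 CPM of the mating pheromone gene MF(ALPHA)1 and 0.24 to 0.67 CPM of the pheromone receptor gene STE3. The libraries of M1 and YJM308 did not match the diploid description: MF(ALPHA)1 stood at 1191 to 1982 CPM in M1 and at 1079 to 2992 CPM in YJM308, and STE3 at 234 to 291 CPM in M1 and 219 to 451 CPM in YJM308. The number of genes that differed from the other strains is therefore also given without these 2, as are many list counts and single genes. This alternative was chosen after the data had been seen. Where no such value is given, M1 and YJM308 are among the other strains.

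Salt changed 2667 of 6090 genes tested in M22 (43.8%), counting a gene as called at a false discovery rate of 0.01 and a change of at least 1.5-fold in edgeR's quasi-likelihood test. Of these, 1260 rose (20.7%) and 1407 fell (23.1%), and the median change of all genes was -0.07 on the log2 scale. Which direction held more calls depended on the scaling and the filter: 1407 rose and 1218 fell with DESeq2 size factors, 1422 and 1237 in the DESeq2 Wald test, 1372 and 1228 with only the 6 M22 libraries, and 1469 and 1153 with no filter on low counts. It also turned without replicate 2 (1284 rose and 1011 fell) and without replicate 3 (1402 and 1192). Because whole cultures were measured and levels are shares of each library, a change in every cell and a change in some of the cells cannot be told apart. In the other strains the same test called 1550 genes in DBY8268 (25.5%), 1835 in M1 (30.1%), 2375 in Y10 (39%), 1523 in YJM1129 (25%), 1531 in YJM308 (25.1%), 2998 in YPS163 (49.2%) and 3004 in YPS606 (49.3%), which put M22 between Y10 and the oak strains.

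The 10 largest rises, among called genes with a symbol and at least 50 counts, ran from 7.46 to 10.51 on the log2 scale. HSP12 (YFL014W), which encodes a small membrane-protecting stress protein, was at 3623, 3750 and 5157 CPM in the M22 salt libraries, against 1.68, 4.37 and 2.96 CPM in the unstressed ones, a log2 change of 10.51 ± 0.72 (SE). STL1, the glycerol-proton symporter, was at 106, 89.3 and 61.6 CPM after salt, against 0.19, 0.46 and 0.16 CPM unstressed (8.29 ± 0.57). Both genes were close to silent before salt, STL1 at under 1 CPM in each library, so that its fold change rests on few unstressed counts. For neither gene did a salt library come near an unstressed one. Others of this group serve carbon metabolism: TKL2 (a transketolase, 9.48), NQM1 (a transaldolase, 8.25), SOL4 (a 6-phosphogluconolactonase, 7.95) and ALD3 (an aldehyde dehydrogenase, 8.31). HXT5, a hexose transporter of slow-growing cells, rose by 8.31 and RTC3 by 9.61. DDR2, a gene of the general stress response, was at 33.5, 51.1 and 58.9 CPM after salt and at 0.062, 0.077 and 0 CPM unstressed, too few counts for a fold change to be read.

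The 10 largest falls ran from -3.31 to -6.29. AAH1 (YNL141W), the adenine deaminase of purine salvage, was at 3.83, 3.51 and 3.71 CPM after salt, against 285, 264 and 316 CPM unstressed, a log2 change of -6.29 ± 0.31. Genes for copper and iron uptake were among them, namely FET4 (low-affinity iron transport, -5.46), CTR1 (-4.83) and CTR3 (-4.34), both high-affinity copper transporters. CTR1 was at 5.22, 10.6 and 13.1 CPM in salt, against 258, 255 and 296 CPM unstressed, with no overlap. ALD6, the main cytosolic acetaldehyde dehydrogenase, fell by 3.52 while its relative ALD3 rose. SFG1 (a transcription factor, -4.02), BMT5 (an rRNA methyltransferase, -3.48), NRG2 (a glucose-dependent repressor, -3.35), FRE4 (a ferric reductase, -3.32) and SPS4 (-3.31) completed the group.

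The glycerol genes moved as a divided group. Of 15 tested, 10 rose and 2 fell, with a median log2 change of 1.40. Over all genes 20.7% rose and 23.1% fell, the shares to set beside the rises and falls in this and the later lists. GPD1, which catalyses the committed step of glycerol synthesis, was at 1076, 1037 and 779 CPM after salt, against 143, 165 and 172 CPM unstressed (2.57 ± 0.22). GPP2, the salt-induced glycerol phosphatase, was at 1245, 1366 and 1184 CPM, against 9.26, 9.73 and 7.27 CPM (7.18 ± 0.22). Its sister GPP1 went the other way, at 452, 513 and 497 CPM after salt, against 924, 956 and 781 CPM unstressed (-0.85 ± 0.16), and so did GPD2 (-1.54), the isoform used when oxygen is short. Both GPP genes were without overlap between salt and unstressed libraries. DAK1, a dihydroxyacetone kinase, rose by 3.48 and GUT2, of glycerol breakdown, by 2.61. The glycerol channel gene FPS1 (-0.47) did not reach the 1.5-fold limit.

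Sodium and potassium genes rose in 10 of 22 and fell in 3, with a median of 0.52. ENA1, the main sodium export pump, was at 528, 446 and 388 CPM in M22 after salt, against 16, 30.7 and 17.6 CPM unstressed (4.40 ± 0.32). ENA5, a neighbouring near-identical copy whose reads can be confused with those of ENA1, rose by 1.28 ± 0.24. The plasma membrane proton pump PMA1 fell by 1.33, a call lost without replicate 2. TRK1 (potassium uptake) fell by 0.94, as did SAT4, a kinase that regulates potassium uptake. PMP3, a small membrane protein linked to salt tolerance, rose by 1.57.

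Transcripts for the HOG pathway itself moved little, with 4 of 26 higher and 3 lower, beside 20.7% and 23.1% of all genes. Their median was 0.09. HOG1, the kinase, was at 249, 221 and 234 CPM after salt, against 186, 182 and 171 CPM unstressed (0.38, below the fold limit). The osmosensor gene SHO1 was at 53.2, 48.1 and 44.5 CPM, against 105, 115 and 111 CPM (-1.19 ± 0.11), and STE20, which acts in the same branch, fell by 0.90. The phosphatase genes that restrain Hog1p divided, PTP2 rising by 1.41 and PTP3 falling by 0.98. Of 10 calcineurin genes 3 rose and 0 fell, beside the same shares of all genes. Among the 3 were RCN2, a calcineurin inhibitor (2.19), and GSC2, a glucan synthase subunit under calcineurin control (0.71). The call on GSC2 was lost without salt replicate 1, unstressed replicate 1 or unstressed replicate 3.

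Most general stress genes rose. In the group of HSP12 and other small stress proteins 18 of 20 rose and 0 fell (median 5.07), in trehalose metabolism 7 of 7 (2.96) and in glycogen metabolism 11 of 16 (2.42). TPS1, trehalose-6-phosphate synthase, was at 1724, 1755 and 1766 CPM after salt, against 62.6, 73.5 and 63.7 CPM unstressed (4.72 ± 0.24). Its regulatory subunit TSL1 rose by 5.54, and so did the trehalases that break the sugar down, NTH1 by 2.96 and NTH2 by 2.66. GSY2, glycogen synthase, stood at 297, 265 and 267 CPM, against 11.4, 12.7 and 10.4 CPM (4.59 ± 0.22), and the phosphorylase GPH1, which degrades glycogen, at 99.8, 85.7 and 134 CPM, against 1.3, 1.84 and 0.4 CPM (6.50). Synthesis and breakdown genes of both storage carbohydrates thus moved in the same direction.

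Transcripts of the stress transcription factors changed less, with a median of 0.12 over the list of 15. What these factors do in M22 was not tested. MSN2 was at 141, 130 and 116 CPM in M22 after salt, against 125, 108 and 125 CPM unstressed (0.12), HSF1 at 114, 112 and 98 CPM, against 122, 114 and 128 CPM (-0.17), and neither was called. MSN4 (0.56) was just under the fold limit, and was called as a rise with DESeq2 size factors (0.65), in the DESeq2 Wald test, and without unstressed replicate 1 or 3, salt replicate 2, or replicate number 2 or 3 (0.61 to 0.69). RPN4, the activator of proteasome genes, was not called (-0.20). Among 15 stress factors 4 rose and 2 fell, beside 20.7% and 23.1% of all genes. The rises were led by USV1 (4.75), a regulator of growth on non-fermentable carbon, and XBP1 (3.79), a stress-induced repressor. SKN7, a factor of the oxidant response, fell by 1.02.

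The chaperones divided. Of 27 chaperone genes 7 rose and 10 fell, beside 20.7% and 23.1% of all genes, with a median of -0.42. SSA4, a stress-induced Hsp70, was at 1930, 2016 and 1943 CPM after salt, against 40.1, 44.6 and 32.8 CPM unstressed (5.65 ± 0.32). SSA1 rose by 3.21, SSE2 by 3.98 and the disaggregase HSP104 by 2.68, at 544, 675 and 526 CPM, against 80, 88.5 and 103 CPM. HSP104, SSA4 and SSA1 were without overlap between salt and unstressed libraries. The chaperone genes named here are all from the 7 that rose, and none of the 10 that fell is named.

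Stretches of a pair of promoters show the element that was searched for. They are from the S288c reference genome (RefSeq, R64, the sacCer3 build of the files), not from M22, run 5′ to 3′ toward the gene, and carry the stress response element (AGGGG, or CCCCT on the other strand) in capitals. CTT1 is shown because it is the catalase gene the study turned on, and HSP12 because its rise was the largest among the genes ranked. The CTT1 stretch lies at chrVII:654236-654295 on the plus strand, that of HSP12 at chrVI:106801-106903 on the plus strand.
CTT1: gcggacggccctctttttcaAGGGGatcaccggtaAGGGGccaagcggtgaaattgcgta
HSP12: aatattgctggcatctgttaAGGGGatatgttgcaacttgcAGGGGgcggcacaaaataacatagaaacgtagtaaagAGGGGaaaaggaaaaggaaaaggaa
The window of CTT1 spans bases 398 to 339 before its start codon and holds 2 of the 3 elements found in the stretch searched, and that of HSP12 spans bases 455 to 353 and holds 3 of 5.

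The next comparison asked where the salt response of M22 differed from that of the other strains, as an interaction of strain and salt. Against the mean response of the other 7, 994 genes differed (16.3%), 488 with a higher response in M22 (8.01%) and 506 with a lower one (8.31%). The count was 1100 without Y10. Without M1 and YJM308 it was 703, with 349 higher and 354 lower, of which 651 were among the 994. Of the 488, 426 rose in M22, 2 fell and 60 were not called in M22 alone, and of the 506, 401 fell, 6 rose and 99 were not called. M22 had the highest response of the 8 strains in 330 of the 488 and the lowest in 441 of the 506. These ranks follow in part from how the genes were picked, by their difference from the mean of the others. The change in M22 and the mean change of the others had the same sign in 386 of the 488 and 370 of the 506. A call in M22 with the opposite sign in the mean of the others was seen in 47 of the 488 and 54 of the 506. The sign was opposite in all 7 others for only 1 of the 488 and 5 of the 506.

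Strain by strain, the M22 response differed from that of M1 in 2063 genes (33.9%), of YJM1129 in 1090 (17.9%), of DBY8268 in 1017 (16.7%), of YJM308 in 915 (15%), of YPS163 in 812 (13.3%), of YPS606 in 563 (9.24%) and of Y10 in 502 (8.24%). These 7 contrasts share the M22 libraries. Their counts fell with any 1 replicate number left out, YPS606 giving 112, 331 and 208 and Y10 186, 216 and 276 without replicates 1, 2 and 3, so that the order of these strains turned without replicate 1 or 3. Called in the same direction in all 7 were 25 genes with a higher response in M22 and 21 with a lower one. Among the 25 were CYB2 (lactate dehydrogenase of the mitochondrion), CLD1 (a cardiolipin phospholipase), PST1 (a cell wall protein), GTO1 (an omega-class glutathione transferase) and ERG9 (squalene synthase), and among the 21 HMS2, RFU1, RGM1, DBP7 and STE20.

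**Figure D1:**
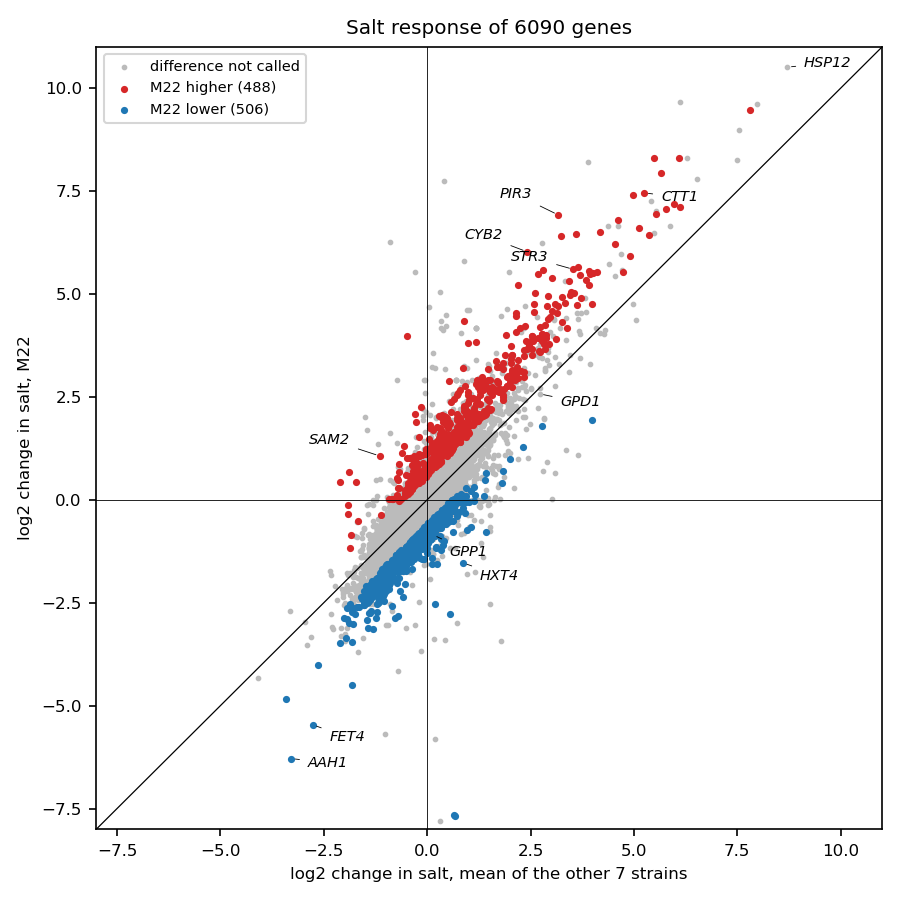
Log2 change in salt of 6090 genes in M22 (vertical axis) against the mean of the other 7 strains (horizontal axis), 1 point a gene, with the diagonal marking equal change. The 488 genes with a higher response in M22 (red) lie above the diagonal and the 506 with a lower one (blue) below it, and SAM2 and HXT4 lie where the signs are opposite.

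The highest differences among genes that met the naming rule ran from 2.58 to 3.75. PIR3, a cell wall protein with internal repeats, was at 127, 114 and 107 CPM in M22 after salt, against 1.24, 1.0 and 0.64 CPM unstressed, and at 3.4 to 86.2 CPM in the other salt libraries (median 19.6), so every M22 salt library was above every other one. Its response exceeded the mean of the others by 3.75 ± 0.41. CYB2 exceeded it by 3.61 ± 0.32, with 81.6, 77.1 and 57.6 CPM in M22 after salt, against 1.3, 1.15 and 0.8 CPM unstressed. The other strains held up to 139 CPM of CYB2 after salt and a median of 3.98 CPM unstressed. CYC7, the second cytochrome c isoform (3.16), CLD1 (3.02), SUE1, which is needed for turnover of unstable cytochrome c (2.83), HXT5 (2.82), BOP2 (2.80), RTC2 (2.77) and FHN1 (2.65) followed, and all of them held without M1 and YJM308. VBA3, a vacuolar amino acid permease (3.45), and FMP48, a mitochondrial protein kinase (2.86), lost the call in some settings: the call on VBA3 was lost without M1 and YJM308 (adjusted p = 0.0217), without M1 alone, without salt replicate 1 or 3, without unstressed replicate 1 or 3 and without any 1 replicate number, and that on FMP48 without replicate 3.

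AQY2, a water channel gene, was of another kind, since its change in M22 was not called. It was at 10.8, 9.2 and 9.7 CPM in M22 after salt, against 7.64, 7.43 and 3.67 CPM unstressed (0.67, not called), while the other strains changed by -4.88 to 0.84. The responses differed by 2.58 ± 0.34.

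Among the lowest differences, AAH1 (-3.0 ± 0.30) and FET4 (-2.69) were also among the largest falls. AAH1 ended below every salt library of the other strains, which ran from 5.25 to 158 CPM with a median of 32.5 CPM. HXT4, a hexose transporter, was at 10.8, 10.2 and 13.5 CPM in M22 after salt, against 47.3, 40.1 and 16.3 CPM unstressed (-1.53), while its changes in YPS163 and YPS606 were 3.38 and 3.78, and the response was lower by 2.4 ± 0.31 than the mean of the others. The fall of HXT4 in M22 was no longer called without replicate 2. HMS2 (-2.11), RFU1, an inhibitor of the deubiquitinase Doa4p (-2.08), HXT1 (-1.80), HXT2 (-1.79), DHR2 (-1.81), RGM1 (-1.72) and the mitochondrial malic enzyme MAE1 (-1.70) were further members. PDC6, a minor pyruvate decarboxylase, rose in M22 by 1.93 but by less than elsewhere (-2.06), a call lost without the oak strains, without replicate 1 and without replicate 2. GIP1, a phosphatase subunit of sporulating cells, fell in M22 by 0.74, against changes of -0.97 to 2.50 in the others, and its fall in M22 was no longer called without unstressed replicate 2, salt replicate 1 or 2, or replicate number 1 or 2.

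**Figure D2:**
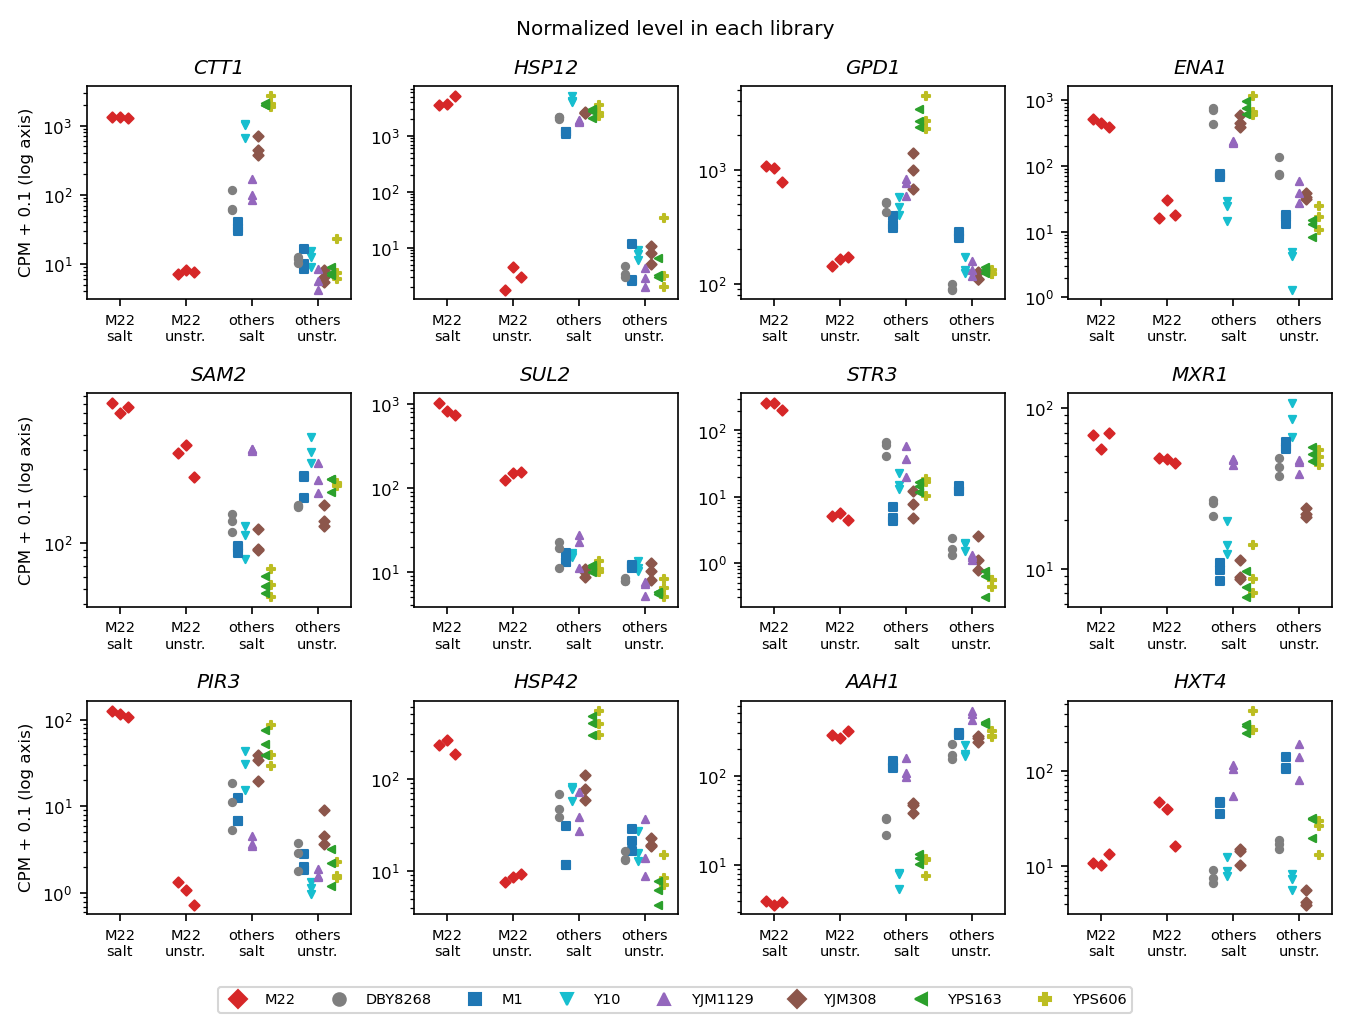
CPM of 12 genes in each library on log axes (0.1 added), with M22 after salt, M22 unstressed, the other 7 strains after salt and the same strains unstressed from left to right in each panel. In M22 the 3 salt points of SAM2, SUL2 and STR3 lie above all salt points of the other strains, while those of GPD1, ENA1 and CTT1 lie within their range.

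The osmotic core was compared in the same way. The glycerol list had a median response of 1.40 in M22, inside the 0.36 to 1.9 of the others. In it 1 gene of 15 was called higher and 3 lower, beside 8.01% and 8.31% of all genes. These shares are also those to set beside the later list counts against the other strains. The 1 was 3 without Y10 and 4 without the oak strains. The gene called higher was GPP2 (1.22 ± 0.19), and those called lower were GPP1 (-0.99 ± 0.17), GPD2 (-0.89) and FPS1 (-0.75). GPD1 in M22 differed from the mean by -0.14 ± 0.22 (adjusted p = 0.69) and its change of 2.57 lay below the 4.40 of YPS163, the 4.63 of YPS606 and the 3.12 of YJM308 and above the other 4 strains. Without the oak strains the difference was 0.57. Of 22 sodium and potassium genes 0 were called higher (2 without the oak strains) and 4 lower (ENA5, PMA1, TRK1 and SAT4). That count of 4 was 2 without salt replicate 3, 1 without replicate 1 and 2 without replicate 2, and the difference of ENA5 (-1.03) was 0.28 without the oak strains. The call on PMA1 was lost without M1, and without M1 and YJM308 (-0.78, adjusted p = 0.0642 in edgeR's test). It was also lost without any 1 salt library, unstressed replicate 2, or replicate number 1 or 2. ENA1 exceeded the mean of the others by 0.76 ± 0.31 (adjusted p = 0.054), not a call.

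In the HOG list of 26, 2 genes had a higher response in M22 and 6 a lower one (3 without replicate 3). Over all genes the shares were 8.01% and 8.31%. SHO1 fell more in M22 than elsewhere (-1.06 ± 0.12), and its 53.2, 48.1 and 44.5 CPM lay below all salt libraries of the other strains, the lowest of which held 59.2 CPM. STE20 (-0.83) and HKR1, a mucin-like sensor of the Sho1p branch (-0.80, a call lost without replicate 3), were also lower. HKR1 was at 167, 147 and 96.9 CPM in M22 after salt, against 163, 142 and 139 CPM unstressed. RCK1, a kinase of the oxidant and osmotic responses, rose to 6.56, 5.61 and 5.87 CPM in M22, against 2.8, 2.07 and 2.4 CPM unstressed, a change of 1.31, while the mean change of the others was -0.55 (difference 1.86 ± 0.30).

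Stress protection was above the mean of the others, and its counts depended on M1 and YJM308. The HSP12 group had 9 genes called higher (5 without M1, 4 without M1 and YJM308), trehalose metabolism 5 (3 and 2) and glycogen metabolism 7 (2 and 2). Over all 6090 genes 488 were called higher (357 and 349). The M22 medians of 5.07, 2.96 and 2.42 stood beside ranges in the other strains of 1.57 to 5.07, 0.73 to 3.43 and 0.02 to 2.41. M22 thus lay at the upper end, close to the oak strains. Genes whose call held without M1 and YJM308 were HSP42 (2.16 ± 0.40) and HSP26 (1.93), both small heat shock proteins, YGP1 (a secreted glycoprotein, 2.20), TPS1 (1.55 ± 0.22), GSY2 (1.56) and GPH1 (2.32). HSP42 was at 230, 264 and 187 CPM in M22 after salt, against 7.52, 8.5 and 9.19 CPM unstressed, and its change of 4.75 was above those of DBY8268, M1, Y10, YJM1129 and YJM308 and below the 6.01 of YPS163 and the 5.39 of YPS606. Of the 27 chaperones 5 were called higher and 2 lower, beside 8.01% and 8.31% of all genes. The higher ones included SSA4 (2.00 ± 0.29) and SSA1 (1.48 ± 0.25). SSA1 reached 5205, 5344 and 5296 CPM in M22 after salt, against 614, 642 and 459 CPM unstressed, and no other salt library exceeded 4121 CPM.

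**Figure D3:**
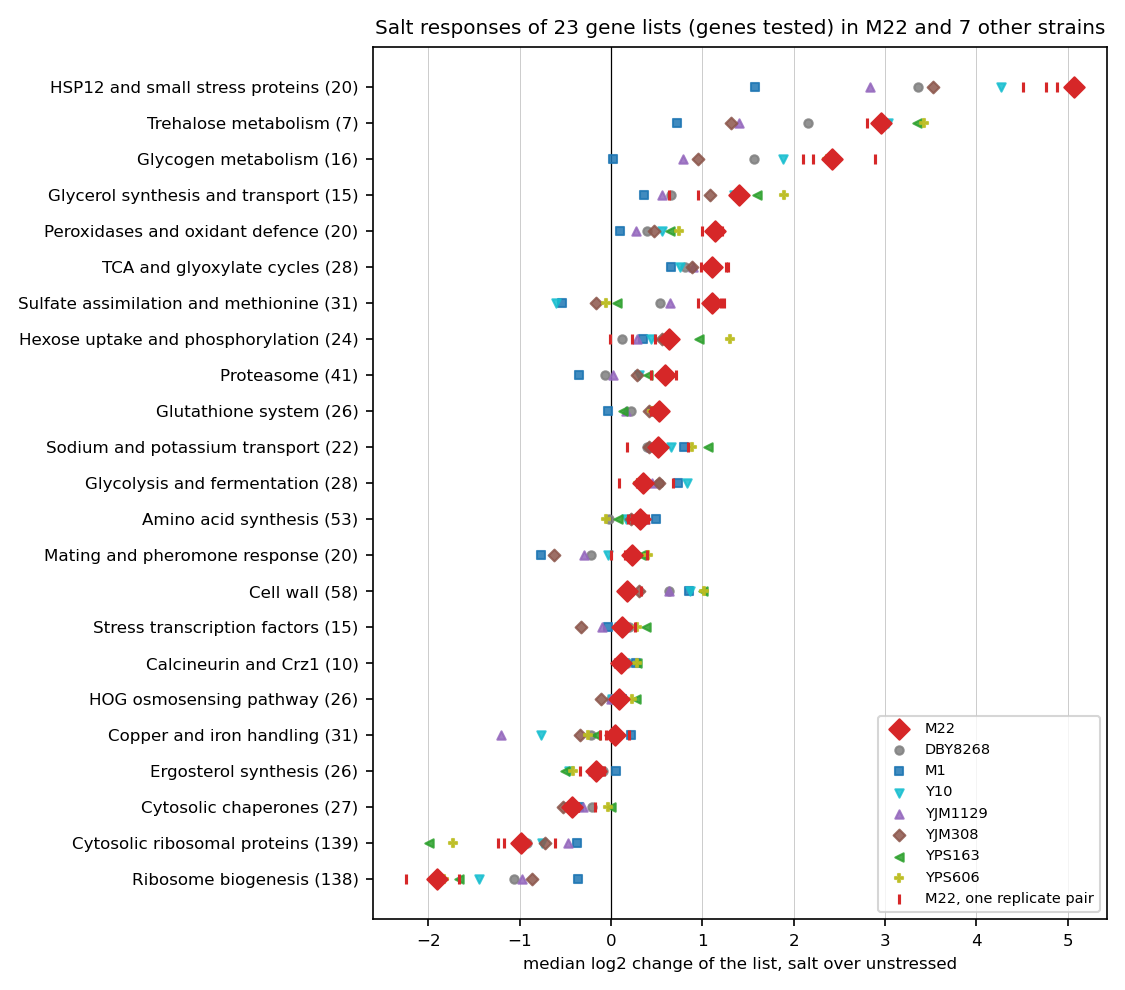
Median log2 change in salt of 23 gene lists in M22 (red diamonds, with the 3 replicate pairs as red ticks) and in each other strain, ordered by the M22 median, with the number of genes tested in brackets. M22 lies beyond all 7 others in sulfate assimilation and methionine (1.10), oxidant defence (1.14), glutathione (0.52) and ribosome biogenesis (-1.91), and below them in cell wall genes (0.18). In glutathione, ribosome biogenesis and cell wall genes 1 of the 3 pairs reached the range of the other strains. In glycogen metabolism M22 (2.418) was also just above the highest other strain (2.406), with pair medians of 2.892, 2.21 and 2.107.

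The cytosolic catalase Ctt1p, which degrades hydrogen peroxide, was at the centre of the study. CTT1 (YGR088W) was at 1323, 1333 and 1305 CPM in M22 after salt, against 7.02, 8.12 and 7.43 CPM unstressed, a change of 7.46 ± 0.39. The other strains ran from 30.1 to 2716 CPM after salt with a median of 451 CPM, and their changes were 8.05 in YPS163, 7.58 in YPS606 and 1.57 to 6.27 in the remaining 5. The M22 response was above the mean of the others by 2.21 ± 0.34, and by 1.67 without M1 and YJM308. Of 20 genes for oxidant defence 12 rose and 1 fell in M22, and the median of 1.14 was above that of each other strain (0.10 to 0.75). Against the others 7 were called higher and 0 lower (6 without M1 and YJM308).

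PRX1, the mitochondrial peroxiredoxin, was at 230, 243 and 263 CPM in M22 after salt, against 15.6, 17.9 and 14.8 CPM unstressed (3.94 ± 0.17), and exceeded the others by 1.06. TSA2, a cytosolic peroxiredoxin (1.35), and TRX3, the mitochondrial thioredoxin (1.36), were above them too. MXR1, which repairs oxidized methionine, differed in another way: it was at 67.1, 55.5 and 69.4 CPM in M22 after salt, against 48.5, 47.9 and 45.4 CPM unstressed (0.43, not called), while the other strains changed by -2.71 to 0.08. All 3 M22 salt libraries were above the highest salt library of the others (48 CPM), and the responses differed by 2.15 ± 0.20.

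Glutathione genes rose in 11 of 26 and fell in 2 (0 without replicate 1; median 0.52, against -0.03 to 0.45 in the other strains), and 7 were called higher and 0 lower against the others. That count was 6 without M1 and YJM308, 4 without salt replicate 3 and 3 without replicate 1. GTO1 was at 47.2, 34.8 and 38 CPM in M22 after salt, against 10.3, 9.19 and 10.9 CPM unstressed (1.98 ± 0.15), above the 7.04 to 25 CPM of all other salt libraries, and differed by 1.61 ± 0.16. GRX2, a glutaredoxin (2.64, difference 1.36), and ECM4, another omega-class transferase (3.22, difference 1.05), also rose by more than the mean of the others. GSH1, which catalyses the first step of glutathione synthesis, was at 358, 308 and 302 CPM, against 216, 226 and 217 CPM unstressed, a change of 0.55 just under the fold limit that was called without salt replicate 3, unstressed replicate 2, or replicate number 2 or 3. The other strains changed by -0.34 to 0.18, none of their salt libraries exceeded 160 CPM, and the response differed by 0.67 ± 0.14, a call lost without replicate 1. Of the glutathione peroxidases GPX1 rose by 1.89 at 0.56 to 4.45 CPM, a call lost without replicate 3, with a difference (1.52 ± 0.41) that was not called without M1, salt replicate 3, unstressed replicate 3, or replicate number 1 or 3. GPX2 fell by 1.33, a call lost without replicate 1 or replicate 2, with no difference called (-0.07 ± 0.36).

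Proteasome genes rose in 23 of 41 and fell in 1 (median 0.60, against -0.35 to 0.62 in the other strains), and 15 rose without salt replicate 3. Against the others 10 were called higher and 0 lower. That count was 4 without M1, 8 without M1 and YJM308, 17 without the oak strains, 5 without salt replicate 3 and 4 without replicate 3. PRE3, a catalytic subunit of the core, was at 158, 166 and 185 CPM in M22 after salt, against 71.7, 78.2 and 61.4 CPM unstressed (1.28 ± 0.17, difference 0.84 ± 0.18). The lid subunit gene RPN9 was at 157, 116 and 168 CPM, against 95, 71.2 and 97.4 CPM, while the mean change of the others was -0.25 (difference 0.99 ± 0.21). Both differences were lost without replicate 1, and the rise of RPN9 itself without salt replicate 1, unstressed replicate 2 or replicate number 1.

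Sulfate assimilation and methionine synthesis had a higher median response in M22 than in each other strain. Of 31 genes 21 rose and 3 fell (1 without replicate 2) in salt (median 1.10), and 22 were called higher and 0 lower than the mean of the others, where 8.01% of all genes were. The medians of the other strains ran from -0.60 to 0.65. The count of 22 was 19 without M1 and YJM308, 22 without M1 alone and 13 without replicate 1.

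Sulfate enters the cell through a pair of permeases. SUL2, a high-affinity sulfate permease, was at 1033, 839 and 743 CPM in M22 after salt, against 124, 152 and 158 CPM unstressed (2.59 ± 0.21), while the other strains held 8.68 to 27.5 CPM after salt and 4.93 to 13.4 CPM unstressed. SUL1, the second permease, was at 118, 86.3 and 110 CPM, against 23.1, 25.9 and 21.9 CPM unstressed (2.14 ± 0.31), with at most 3.17 CPM in any salt library of the others. Both genes were thus already above the other strains before salt and moved further away. The responses differed by 1.84 ± 0.22 for SUL2 and 1.57 ± 0.36 for SUL1, and the call on SUL1 was lost without replicate 1.

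The genes of methionine and S-adenosylmethionine followed. MET6, methionine synthase, was at 4520, 3876 and 3258 CPM in M22 after salt, against 1737, 1999 and 1537 CPM unstressed (1.14 ± 0.24), while the other salt libraries ran from 19.7 to 1535 CPM with a median of 102 CPM. Its changes elsewhere were 1.64 in DBY8268 and 2.61 in YJM1129 and -2.24 to -0.73 in the remaining 5, a difference from their mean of 1.74 ± 0.26. SAM2, S-adenosylmethionine synthetase, was at 808, 696 and 768 CPM, against 383, 433 and 267 CPM (1.06 ± 0.22). For SAM2 the values of the other strains were 0.60 in YJM1129 and -2.20 to -0.36 in the remaining 6, and its response in M22 was higher by 2.21 ± 0.24. MET28, which encodes a subunit of the Cbf1p-Met4p-Met28p activator, was at 108, 98.4 and 132 CPM, against 8.51, 13.1 and 16.4 CPM (3.17 ± 0.23, difference 1.70). STR3, a cystathionine beta-lyase, was at 259, 256 and 202 CPM, against 4.91, 5.52 and 4.39 CPM (5.6 ± 0.34). Its difference of 2.06 ± 0.36 was 0.90 and no longer called without M1 and YJM308 (adjusted p = 0.0859).

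In levels, 19 of the 31 genes were higher in unstressed M22 than in the mean of the unstressed other strains and 0 lower (median difference 1.3), where 4.07% of all genes were higher and 3.63% lower. After salt 27 were higher and 0 lower (median 2.83), against 13% and 11.4% of all genes. SUL2 stood 4.13 above the others unstressed and 5.97 after salt, and MET6 3.10 and 4.84. For both genes the level was thus above the other strains in either state, and more so after salt. Over all genes 469 differed in level unstressed (500 without M1 and YJM308) and 1485 after salt (1218 without those strains).

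**Figure D4:**
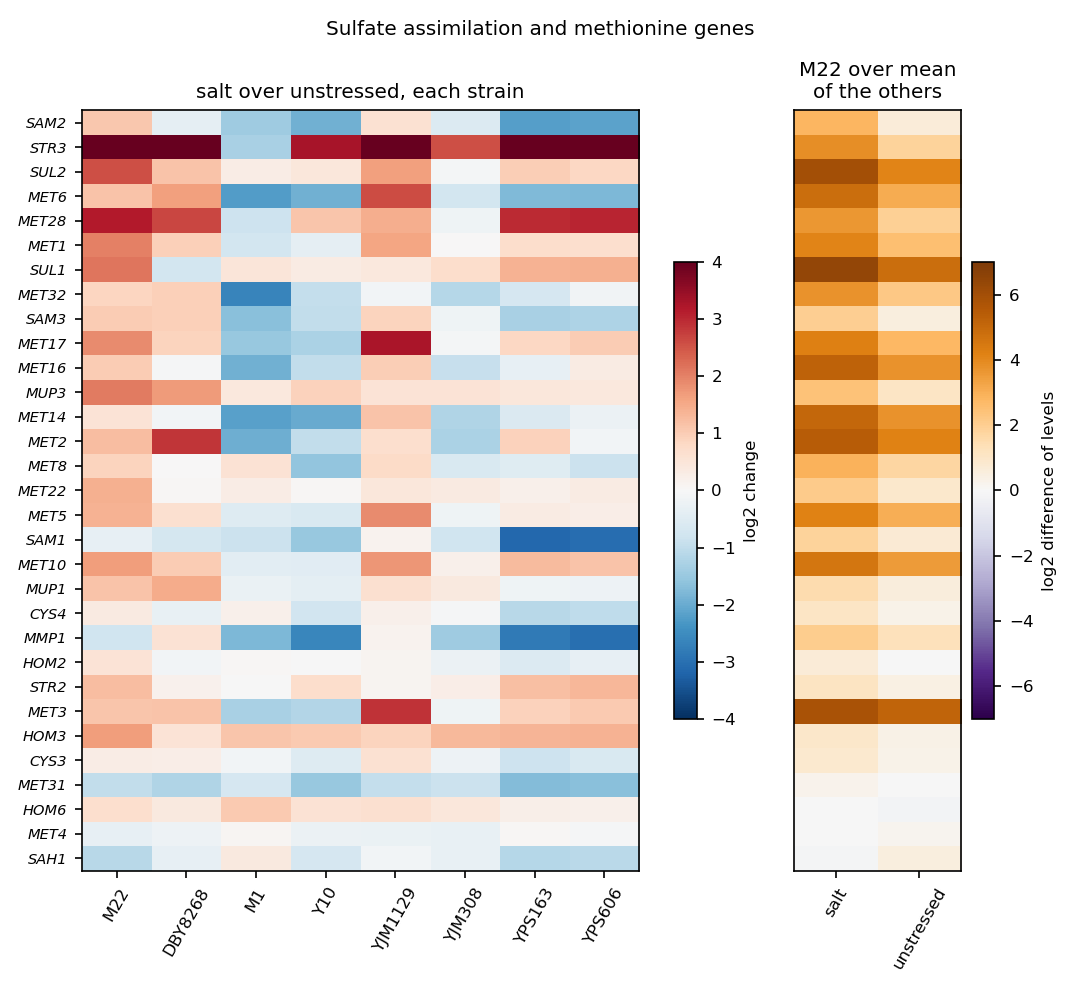
Left, log2 change in salt (colour, limited to 4 in either direction, which STR3 exceeds) of 31 sulfate and methionine genes in M22 and each other strain, ordered by the difference of M22 from the mean of the others. Right, log2 level of M22 over that mean, after salt and unstressed. Of the 31 genes, 21 rose in M22, 27 stood above the mean of the others after salt and 19 already unstressed.

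The promoters of the sulfate genes are known to hold CACGTG, the site of Cbf1p. This motif, which reads the same on both strands and was added to the search after the data had been seen, was present in the 500 bases before the start of 22 of the 31 genes (70.97%), against 6.34% of all tested genes with a promoter (366 of 5773). From 250 bases before to 50 after the start it was present in 9 of the 31 (29.03%), against 2.98% of all (172 of 5774). Stretches of 3 of them are shown with the motif in capitals, from the same S288c reference, 5′ to 3′ toward the gene: SUL2 at chrXII:323190-323261 on the plus strand, SAM2 at chrIV:1454762-1454807 and MET28 at chrIX:384313-384358 on the minus strand.
SUL2: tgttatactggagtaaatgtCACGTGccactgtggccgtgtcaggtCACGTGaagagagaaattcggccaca
SAM2: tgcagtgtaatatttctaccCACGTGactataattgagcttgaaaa
MET28: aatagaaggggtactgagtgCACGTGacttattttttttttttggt
They are examples of the 22 genes with the motif, and their sequence in M22 was not read.

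Ribosome biogenesis was the counterpart on the side of repression. In M22 137 of 138 genes fell and 0 rose, with a median of -1.91, against -1.83 to -0.36 in the other strains. The gap to YPS606 (-1.83) was smaller than the spread of the M22 replicate pairs, whose medians were -2.24, -1.88 and -1.67. Against the others 79 were called lower and 0 higher, beside 8.31% of all genes. This count was 55 without M1, 36 without M1 and YJM308, 34 without replicate 1, 42 without replicate 2 and 111 without the oak strains, so it depends on which strains and replicates are set beside M22. HAS1, an RNA helicase of both subunits, was at 52, 54.1 and 51.3 CPM in M22 after salt, against 436, 380 and 378 CPM unstressed (-2.92 ± 0.15), below the 65.5 to 313 CPM of all other salt libraries (difference -1.47 ± 0.15). DBP7, a helicase of the large subunit, was at 19.9, 26.8 and 26.9 CPM, against 142, 146 and 119 CPM (-2.47, difference -1.42 ± 0.19), and also below every other salt library. DHR2, a helicase of the small subunit, fell by 3.13 (difference -1.81).

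Cytosolic ribosomal protein genes fell in 102 of 139 and rose in 0, with a median of -0.98, inside the -1.99 to -0.37 of the other strains. The 102 were 62 without replicate 1 and 63 without replicate 2. Only RPL43A was called lower than the others, a call lost without M1 and without any 1 replicate number, and the count was 17 without the oak strains. RPL24B was at 372, 397 and 500 CPM after salt, against 1638, 1695 and 1387 CPM unstressed (-1.89 ± 0.20). Many of these genes have a near-identical paralog, and how their reads were divided is uncertain.

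Cell wall genes had a lower median response in M22 than in each other strain. In M22 25 of 58 rose and 6 fell (median 0.18), against 0.31 to 1.02 in the other strains, and the M22 replicate pairs had medians of 0.33, 0.21 and 0.23. Against them 4 were called higher and 17 lower, beside 8.01% and 8.31% of all genes. The 17 were 15 without M1 and YJM308, 8 without unstressed replicate 2 and 6 without salt replicate 3. They were 8, 6 and 9 without replicates 1, 2 and 3, so the count rests on single libraries. GSC2 was at 146, 116 and 94.9 CPM in M22 after salt, against 74.1, 79.2 and 64.5 CPM unstressed, while every other salt library held at least 154 CPM (difference -1.13 ± 0.23, a call lost without the oak strains or replicate 2). The 4 higher ones included PIR3, PST1 (3.23, difference 1.54) and EXG1, an exoglucanase (2.75, difference 1.18). CWP1, a wall mannoprotein, rose by 3.29 to 3589, 3435 and 3279 CPM, against 377, 431 and 255 CPM unstressed, without a called difference (-0.64 ± 0.29).

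Among copper and iron genes 9 of 31 rose and 8 fell (median 0.04), beside 20.7% and 23.1% of all genes. Against the others 7 were called higher and 3 lower, beside 8.01% and 8.31% of all genes. The 7 were 9 without M1 and YJM308, 4 without Y10, 4 without unstressed replicate 1 or salt replicate 2, and 3 without replicate 1 or replicate 2. HMX1, the haem oxygenase, was at 67.2, 68.3 and 50.5 CPM in M22 after salt, against 15, 15.4 and 19.2 CPM unstressed (1.9 ± 0.21), while the mean change of the others was -0.26 (difference 2.16 ± 0.23). TIS11, which destabilizes mRNAs of iron-using proteins, was at 23.7, 19.6 and 18 CPM, against 22, 20 and 25.7 CPM (-0.13), above the 0.56 to 13.1 CPM of the other salt libraries (difference 1.78 ± 0.29). The metallothionein CUP1-1 was called higher by 1.58 ± 0.46, but this rested on 1 library: it held 298 CPM in salt replicate 1 and 38 and 23.1 CPM in the others, against 36.4, 32.2 and 38.7 CPM unstressed, and the change was -0.23 without that library. The call was also lost without unstressed replicate 1 or 2. CUP1-1 and CUP1-2 are identical copies and their reads cannot be assigned to either.

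Hexose transporters and kinases divided, with 7 of 24 genes higher and 10 lower, beside 20.7% and 23.1% of all genes. The median of 0.63 was above the medians of the 3 replicate pairs (0.48, -0.009 and 0.23). The kinase genes HXK1, GLK1 and EMI2 rose, HXK1 by 7.07, GLK1 by 6.44 and EMI2 by 4.44. GLK1, glucokinase, was at 2919, 2897 and 2367 CPM after salt, against 29.8, 39.2 and 25.7 CPM unstressed. The transporter genes HXT2 and HXT1 fell: HXT2 was at 185, 200 and 205 CPM, against 1099, 1291 and 670 CPM (-2.37), and HXT1 at 97, 96.7 and 83 CPM, against 273, 331 and 217 CPM (-1.57). Reads of HXT genes can be shared between near copies. Against the other strains 4 genes were called higher (2 without unstressed replicate 3 or without replicate 3) and 7 lower. Over all genes the shares were 8.01% and 8.31%.

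Genes of the TCA and glyoxylate cycles mostly rose, while those of glycolysis and fermentation divided. In the TCA and glyoxylate cycles 20 of 28 rose and 0 fell (median 1.11, inside the 0.66 to 1.14 of the others), among them CIT1, mitochondrial citrate synthase (2.22), IDP2 (2.62) and MDH2 (2.54), both cytosolic enzymes. Against the others 6 were called higher, 3 without M1, without salt replicate 3, without replicate 2 or without replicate 3, and 2 without replicate 1. Of 28 genes of glycolysis and fermentation 10 rose and 5 fell (3 without replicate 2), beside 20.7% and 23.1% of all genes. The genes that rose included PYK2 (a minor pyruvate kinase, 3.93), GPM2 (3.41) and the aldehyde dehydrogenase ALD4 (4.54). ALD4 was at 867, 784 and 606 CPM after salt, against 30.3, 39.9 and 27 CPM unstressed, with a response above the others by 1.39 ± 0.24. Against the others 6 were called higher (3 without M1 and YJM308) and 4 lower, beside 8.01% and 8.31% of all genes. The 4 were between 0 and 2 without any single replicate number and 7 without the oak strains.

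Amino acid genes rose in 22 of 53 and fell in 8 (4 to 5 without any 1 replicate number), beside 20.7% and 23.1% of all genes. The rises were led by the arginine genes ARG3 (5.34), ARG1 (4.17) and ARG4 (3.75). ARG4, argininosuccinate lyase, was at 955, 966 and 978 CPM in M22 after salt, against 60.9, 69.3 and 84.9 CPM unstressed, and no other salt library exceeded 480 CPM (difference 1.3 ± 0.16, or 0.75 without M1 and YJM308). GDH1, which assimilates ammonium into glutamate, was at 90.2, 97.1 and 97.4 CPM, against 666, 775 and 635 CPM (-2.86 ± 0.21, difference -1.61). Against the others 10 were called higher (6 without replicate 1) and 2 lower, beside 8.01% and 8.31% of all genes.

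Of 26 ergosterol genes 4 rose (2 without unstressed replicate 3 or replicate 1) and 9 fell, beside 20.7% and 23.1% of all genes. The median was -0.17. ERG9 stood out at 610, 638 and 534 CPM in M22 after salt, against 230, 253 and 193 CPM unstressed (1.40 ± 0.13), where the others changed by 0.20 to 0.56 (difference 1.03 ± 0.13). The sterol-sensing factor UPC2 fell by 1.45. Against the others 4 genes were called higher and 3 lower, beside 8.01% and 8.31% of all genes. These counts came to 1 each without the oak strains. The 4 were 2 without unstressed replicate 3 or replicate 1, and the 3 were 1 without unstressed replicate 2, replicate 2 or replicate 3.

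The salt state of M22 was also compared directly with its ethanol state, the other stress given to the same cultures, at 30 min in place of 45 min. Higher after salt than after ethanol were 1294 genes (21.2%) and lower 1305 (21.4%). Sulfate and methionine genes were higher after salt in 26 of 31 and lower in 1 (median difference 3.66): MET6 was at 4520, 3876 and 3258 CPM after salt, against 53.2, 86.6 and 56.5 CPM after ethanol. SUL2 was at 1033, 839 and 743 CPM, against 46, 37.4 and 60.9 CPM after ethanol. After ethanol, SUL2 and MET6 were thus below their unstressed values in M22.

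Ribosome biogenesis genes were higher after salt in 130 of 138 and lower in 0 (3.32), with UTP13, of the small subunit processome, at 65.3, 78.2 and 75.7 CPM after salt, against 0.74, 0.35 and 1.82 CPM after ethanol. Chaperones were lower after salt in 25 of 27 (-2.0), HSP104 standing at 544, 675 and 526 CPM, against 4351, 5790 and 5472 CPM after ethanol (-3.17 ± 0.29), and HSP26 at 48, 65.2 and 60.7 CPM, against 2367, 2499 and 1689 CPM (-5.24). Glycolytic and fermentative genes were lower after salt in 21 of 28. GPM2 was at 5.22, 8.9 and 8.77 CPM after salt, against 754, 725 and 617 CPM after ethanol. CTT1, in contrast, was at 1323, 1333 and 1305 CPM after salt and at 1537, 1960 and 3193 CPM after ethanol, a difference of -0.77 that was not called (adjusted p = 0.021). ENA1, STL1 and ARG3 were the reverse of the chaperones, ENA1 at 528, 446 and 388 CPM after salt, against 112, 122 and 79 CPM after ethanol (2.13 ± 0.29), STL1 higher by 6.11 and ARG3 by 6.97.

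The genes that set M22 apart were last searched for promoter motifs, in the 250 bases before to 50 after the start in the S288c reference (RefSeq, R64). The stress response element was found in 210 of 481 promoters of genes with a higher response in M22 (43.66%) and in 77 of 501 of genes with a lower one (15.37%), beside 21.72% of all tested genes with a promoter (1254 of 5774). Genes that rose in M22 held it in 39.12% and those that fell in 14.52%. The heat shock element, searched as GAANNTTC and TTCNNGAA, was at 22.25% and 21.76% for the higher and lower responses, beside 22.76% of all. In a window of 500 bases before the start, chosen after the data had been seen, the stress response element was at 57.38% and 28.74%, beside 34.44% of all. These are shares of letters in a reference promoter and not of bound sites, and the sulfate list, at 16.13%, was below the share of all genes.

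**Figure D5:**
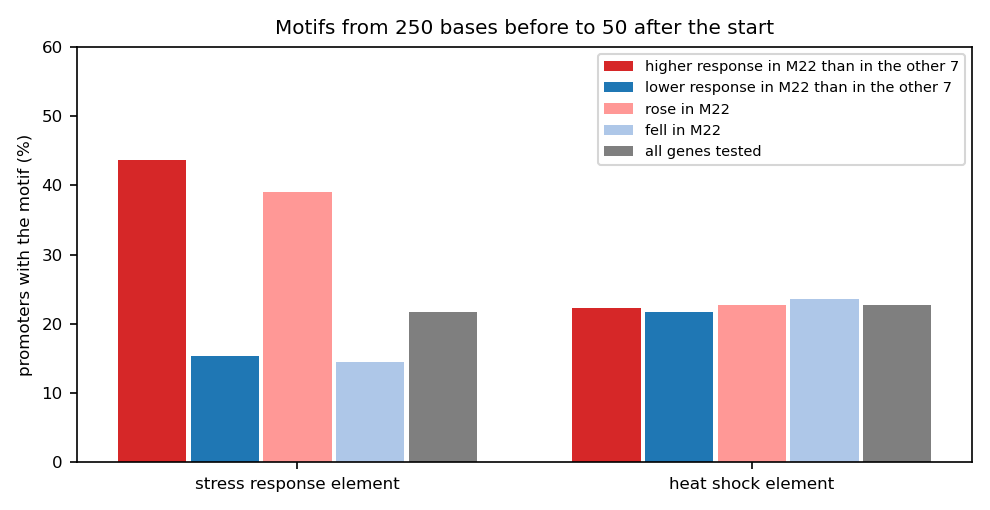
Share of promoters (percent, from 250 bases before to 50 after the start) that hold the stress response element or the heat shock element, for genes whose response was higher or lower in M22 than in the other 7 strains, genes that rose or fell in M22, and all genes tested. The stress response element stands at 43.66% for the higher responses and 15.37% for the lower ones, beside 21.72% of all, while the 5 bars of the heat shock element lie between 21.76% and 23.58%.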

How the data were processed

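RNA was extracted with hot phenol, and polyA-selected libraries were made with the KAPA mRNA HyperPrep kit. Per the labels and the study's methods, the authors used Trimmomatic, Bowtie2 2.3.4.1, GATK, STAR 2.6.1 and RSEM 1.3.1 on sacCer3 (R64) with a reference adapted to each strain, and deposited RSEM expected counts for 6685 genes in 119 libraries, which were rounded here to whole numbers. A gene missing from the S288c reference, or a paralog with shared reads, would be measured poorly by this route. All columns were matched to samples (0 unused). The 48 libraries of the mutant experiment were left out, and Y10 salt columns were taken by description and treatment, not by title. Of the genes, 6006 matched a RefSeq entry, from which names, coordinates and promoters came.

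The 71 libraries of the strain experiment (7726938 to 17964859 counts) were fitted together in R 4.3.3 with edgeR 4.0.16 (TMM, quasi-likelihood test, Benjamini-Hochberg adjustment over the 6090 genes that averaged 1 CPM or more in any strain and treatment). Calls needed a false discovery rate under 0.01 and a change of at least 1.5-fold, and each SE was derived from the log2 change and its F value. Replicate number was a block because the study's methods tie it to library construction and sequencing lane. Deviations of same-numbered libraries from their group means correlated at 0.0625 on average between strains and 0.0759 within strains, against -0.0319 for different numbers. The M22 salt and unstressed libraries of numbers 1, 2 and 3 gave 0.1253, -0.0288 and 0.0102. The fit held no term for the culture that a salt and an unstressed sample share. Replicates of M22 differed beyond counting noise, and p-values measure the spread between cultures of 1 clone, which may be partly technical. Alternatives included DESeq2 1.42.0, other filters and limits, no block, single libraries or replicates left out, and other sets of strains. The scripts were tested on simulated data.

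Genes were named by rank: the 10 largest rises and falls in salt, the 12 highest and lowest differences from the other strains, the 5 highest and lowest between salt and ethanol (each called, with a symbol and at least 50 counts), up to 4 called genes by change and up to 4 by difference in each list, and a set of genes of salt and stress biology. Members and lists were chosen with earlier results of these data known. No set test was run.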

Additional observations from a re-analysis of the deposited data

Results flagged for a closer look

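The salt response differed between strains in a tested interaction, which is what brought these results here. Between M22 and the mean of the other 7 strains 994 genes differed. Against single strains the count was 1017 for DBY8268, 2063 for M1, 502 for Y10, 1090 for YJM1129, 915 for YJM308, 812 for YPS163 and 563 for YPS606.

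A change called in M22 in the direction opposite to the mean of the others was seen in 12 named genes. The response was higher in M22 for SAM2 (2.21), HMX1 (2.16), RCK1 (1.86), MET6 (1.74), RPN9 (0.99), RPN8 (0.92), RPN12 (0.85) and ERG13 (0.70), which encode a methionine cycle enzyme, haem oxygenase, a kinase, methionine synthase, 3 proteasome lid subunits and a sterol enzyme. It was lower in M22 for HXT4 (-2.40), HXT1 (-1.80), GIP1 (-1.71) and GPP1 (-0.99). For MET6 the mean of the others hides 2 strains, DBY8268 (1.64) and YJM1129 (2.61), that moved as M22 did. Among all genes that differed, named or not, such a call had the opposite sign in all 7 others in few cases. These were 1 gene with a higher response in M22 and 5 with a lower one. Several of the calls on the 12 named genes depended on single libraries or strains. The response of RPN8 was lost without salt replicate 3 (0.50, adjusted p = 0.0746 in edgeR's test), without any 1 unstressed library and without replicate 1 or 3, and its difference without M1, unstressed or salt replicate 3, or replicate 1 or 3. The response of RPN12 was lost without unstressed or salt replicate 3 or replicate 1 or 3, and its difference without replicate 1. The response of ERG13 was lost without unstressed replicate 1 or 3, salt replicate 2 or replicate 1, and its difference without the oak strains (0.49, adjusted p = 0.0179), unstressed replicate 3 or replicate 1. What underlies these differences was not tested.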

How the results depend on the processing

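With a 2-fold limit the calls were 1650 for the M22 salt response, 396 against the other 7 strains, 246 for the unstressed level, 579 for the salt level and 1729 for salt against ethanol. Leaving out single libraries or replicate numbers gave 2167 to 2601, 598 to 956, 289 to 416, 1295 to 1480 and 2329 to 2567 calls for the same comparisons, and against single strains 359 to 744 (DBY8268), 1364 to 1720 (M1), 186 to 276 (Y10), 452 to 703 (YJM1129), 364 to 742 (YJM308), 267 to 381 (YPS163) and 112 to 331 (YPS606), fits with fewer samples. Without the replicate block the 5 comparisons gave 2629, 959, 454, 1470 and 2583 calls and the single strains 960 (DBY8268), 2001 (M1), 455 (Y10), 1027 (YJM1129), 864 (YJM308), 713 (YPS163) and 523 (YPS606), and among named genes the calls on GPM2 (difference), RPN8 and RPN12 (response) were lost. The DESeq2 Wald test called 2659 genes for the response and 1051 for the difference. Directions turned for RPN4 (0.13) and HSF1 (0.053) without replicate 3, neither of them called, with ranges over single omissions of -0.34 to 0.13 and -0.22 to 0.053, for GPD1 (0.57) and ENA5 (0.28) against the others without the oak strains, and for CUP1-1 without salt replicate 1 (-0.23) or replicate 1 (-0.27), with a range of -0.27 to 2.39. Apart from those left-out strains and libraries, the causes were not tested. Alternatives without single libraries for named genes and lists, without M1 and YJM308, and the longer promoter window were chosen after seeing the data. Genes under a few CPM are limited by counting, and strain contrasts by 3 cultures a group.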

Other observations

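Single M22 libraries stood apart in some genes beside CUP1-1. MF(ALPHA)1 was at 1.21, 0.93 and 9.68 CPM in the M22 ethanol libraries, and GPX2, a glutathione peroxidase, at 9.46, 14 and 69.6 CPM, the third library above the others in both.

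No count at all was found in any M22 library for 53 of the 6090 genes tested. Of these, 18 had a mean of at least 1 CPM in the other strains, 3 of them with a symbol (YRF1-6, YRF1-7 and BDS1). Whether these genes are missing from M22 or differ from the reference there was not tested.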
